A study of Homo sapiens with 4 samples.

Results

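Nuclear lamins, the lamin B receptor and the high mobility group (HMG) genes HMGA1, HMGA2, HMGB1, HMGB2 and HMGB3 were followed in A549, a human lung adenocarcinoma cell line, with and without knockdown of RBM4, a protein that binds RNA and acts in splicing and translation. The 9 genes were chosen by symbol (LMNA, LMNB1, LMNB2, LBR and the HMG genes above) from the 19732 gene symbols of the deposited table, and all 9 were found. The series, which by its title concerns RBM4 and senescence, describes 4 samples: a control and an RBM4 knockdown culture of A549 and of H1299, another human lung cancer line. The A549 control and the A549 knockdown were compared with 1 library each, so no difference below has a replicate check and no p-value is given. The H1299 samples were not analysed here, because 3 columns of values stood for 2 samples under names that match no label. Cells of both groups grew in medium with fetal bovine serum. The titles mark the knockdown with the letters sh, and the labels give neither the sequence used, nor a number of clones, nor a time after knockdown.

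Lamins are filament proteins that line the inner face of the nuclear envelope. A-type lamins (lamin A and lamin C) come from LMNA by alternative splicing, and B-type lamins from LMNB1 and LMNB2. LBR is a multi-pass protein of the inner nuclear membrane that binds B-type lamins and heterochromatin and also has sterol reductase activity. HMGA proteins bind the minor groove of AT-rich DNA through AT-hooks, and HMGB proteins bend DNA through HMG boxes and end in an acidic tail. Loss of lamin B1 and of HMGB2, accumulation of HMGA proteins at condensed heterochromatin, and release of HMGB1 from the nucleus have been described in senescent cells, mostly for the proteins. The values here are transcript levels and do not show protein or its place in the cell.

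Values are FPKM as deposited (fragment numbers divided by transcript length and library size), summed over the listed protein-coding transcripts of a gene, and levels can be compared between genes on this scale. A difference is the log2 ratio of knockdown to control with 1 FPKM added to each, and 2-fold on this scale is used as a fixed size for counting. Summed FPKM came to 671529 in control cells and 622366 after knockdown, of which mitochondrial genome transcripts held 18.6% and 21.7%. Sequencing depth is unknown. RBM4 had 59.4 FPKM in control cells and 30.6 FPKM in the library read as the knockdown, a difference of -0.93. It shares exons with RBM14-RBM4 and overlaps exons of RBM4B on the opposite strand, so its level is uncertain. The knockdown column was identified by its name, which adds a number that the labels do not hold, so the sign of each difference rests on that reading.

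The ends of the coding sequences of lamin A, the B-type lamins and the HMGB genes are given below (GENCODE 29, GRCh38, coding strand). Lamin A and both B-type lamins end in a cysteine followed by 3 residues and the stop codon, a signal for attachment of a farnesyl lipid. The last 30 coding bases are given with the cysteine codon in capitals.
lamin A: cagagcccccagaacTGCagcatcatgtaa
lamin B1: gcatccaatagaagcTGTgcaattatgtaa
lamin B2: accacctcaagaggcTGCtacgtgatgtga
The HMGB genes end in codons for aspartate and glutamate, which form the acidic tail, and these codons are in capitals in the last 30 coding bases. The unbroken run before the stop codon was 30 codons in HMGB1, 22 in HMGB2 and 20 in HMGB3, and 0 in the short coding sequence of HMGB1.
HMGB1 long: GATGAAGAAGAAGATGATGATGATGAAtaa
HMGB1 short: aagctgaaggaaaaatatgaaaagttctag
HMGB2: GAGGAGGAAGAGGATGAAGATGAAGAAtaa
HMGB3: GAGGAGGAGGAGGAGGAGGAGGATGAAtaa

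Among the 9 genes, HMGA2 was higher and LMNB1 was lower by at least 2-fold in the knockdown library, and the other 7 differed by less. All 9 passed the filter of 1 FPKM in either library, which 12230 genes passed. Of those genes, 7.21% differed by at least 2-fold in either direction, with 4.96% higher (607 genes) and 2.25% lower (275 genes), against 2 of the 9. With mitochondrial genes left out that split was 810 higher and 176 lower. Differences of the 9 ran from -1.11 to 1.48 with a median of -0.28, beside a median of -0.04 over all genes. Of the 9, 3 lay above 0 and 6 below, where 53.4% of all genes lay below 0. With mitochondrial genes left out and both libraries rescaled, the median of all genes moved to 0.11, LBR came to 0.01 and the split of the 9 was 4 above and 5 below.

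**Figure D1:**
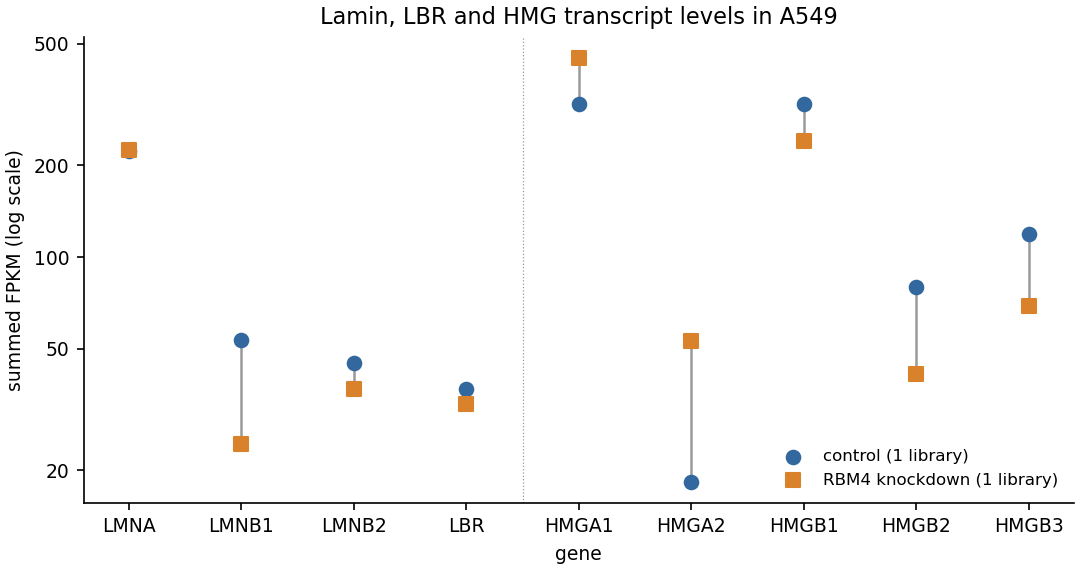
Summed FPKM (log axis) of the 9 genes in the A549 control library (circles) and the RBM4 knockdown library (squares), 1 library each, joined by a line per gene. LMNB1, HMGB2 and HMGB3 are lower and HMGA2 and HMGA1 higher in the knockdown library, while the LMNA symbols overlap, at 222 and 225 FPKM.

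The order of levels changed at its lower end. In the control library HMGA1 and HMGB1 stood together at 317 FPKM, followed by LMNA, HMGB3, HMGB2, LMNB1, LMNB2, LBR and HMGA2. HMGA1 led in the knockdown library at 449.8 FPKM, with HMGB1 and LMNA next. HMGA2 went from the lowest of the 9 to the fifth place, and LMNB1 from the sixth place to the lowest. HMGB1 and LMNA were close in the knockdown library, at 241 and 225 FPKM, and without replicates their order there is not established. All 9 genes were expressed at a level above most genes: in the control library the lowest of them, HMGA2, exceeded 60.8% of the genes past the filter, and HMGA1 exceeded 98.0%.

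Of the lamin genes, LMNA was the most abundant and the least different. LMNA (ENSG00000160789, chromosome 1, 156082573 to 156140089, plus strand, hg38), which encodes lamins A and C, had 222 FPKM in control cells and 225 FPKM after knockdown, a difference of 0.02. LMNB1 (ENSG00000113368, chromosome 5, 126776623 to 126837020, plus strand), which encodes lamin B1, had 53.7 FPKM in control cells and 24.4 FPKM after knockdown, which was 45.5% of the control and a difference of -1.11. The knockdown library was low for LMNB1, and 1.59% of all genes had a lower difference. That difference was short of 2-fold with a pseudocount of 10 (-0.89) and with mitochondrial genes left out (-0.95), and just short of it once the library totals were made equal.

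LMNB2 (ENSG00000176619, chromosome 19, 2427638 to 2456996, minus strand), which encodes lamin B2, had 45.0 FPKM in control cells and 36.8 FPKM after knockdown, a difference of -0.28. It shares exon sequence on the same strand with TIMM13 and MIR7108, so its level is uncertain. LBR (ENSG00000143815, chromosome 1, 225401502 to 225428925, minus strand) had 36.8 FPKM in control cells and 33.1 FPKM after knockdown, a difference of -0.15. Both differences lay nearer to 0 than that of LMNB1, and neither would be counted at 2-fold under any of the 8 alternative settings.

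Ratios within a library do not depend on how the libraries are scaled to each other. LMNB1 was 1.19 times LMNB2 in the control library and 0.66 times LMNB2 after knockdown, so their order was the reverse in these libraries. Without replicates, and with the level of LMNB2 uncertain, that reversal is not established. The ratio of LMNA to LMNB1 was 4.14 in control cells and 9.23 after knockdown. LMNB1 made up 16.7% of the summed FPKM of the 3 lamin genes in control cells and 8.52% after knockdown, while LMNA made up 69.3% and 78.6%. LMNB2 held 14.0% and 12.9%. The lamin sum itself was 321 FPKM in control cells and 286 FPKM after knockdown. Against LBR, its binding partner at the membrane, LMNB1 stood at 1.46 times in control cells and 0.74 times after knockdown.

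The transcripts of LMNA held nearly the same shares of the gene in both libraries. Of its 10 listed transcripts, 5 end as lamin A in the coding bases printed above. Lamin A forms had 85.1 FPKM in control cells and 91.1 FPKM after knockdown, 38.3% and 40.5% of the gene. The transcript with the complete lamin A coding sequence, ENST00000368300, codes for 664 residues and had 59.0 and 61.3 FPKM. The complete lamin C transcript, ENST00000368301, codes for 572 residues and had 50.6 and 48.6 FPKM. ENST00000347559, which keeps the lamin A end but codes for 634 residues, was listed at 0 in both libraries. ENST00000361308, which codes for 487 residues, had 43.6 and 39.5 FPKM, and a lamin A form of 614 residues, ENST00000368299, had 26.1 and 28.3 FPKM. ENST00000504687, a fragment of 546 bases with no stop codon, had 35.0 and 34.8 FPKM, and FPKM of so short a model is less certain.

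LMNB1, LMNB2 and LBR each had 1 transcript that carried nearly all of the level. ENST00000261366, which codes for 586 residues of lamin B1, held 98.1% of LMNB1 in control cells and all of it in the knockdown library, at 52.7 and 24.4 FPKM. LMNB2 was listed as a single transcript. ENST00000272163 held 94.6% of LBR in control cells and 95.9% after knockdown. Another LBR transcript with the same coding length, ENST00000338179, had 1.89 FPKM in control cells and 0.00041 FPKM after knockdown.

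The HMGA genes were both higher in the knockdown library. HMGA1 (ENSG00000137309, chromosome 6, 34236873 to 34246231, plus strand), the more abundant of the pair, had 317 FPKM in control cells and 449.8 FPKM after knockdown, a difference of 0.50 and 142% of the control. HMGA2 (ENSG00000149948, chromosome 12, 65824131 to 65966295, plus strand), an oncofetal gene that most adult tissues hold at low levels, had 18.4 FPKM in control cells and 52.9 FPKM after knockdown. This was 288% of the control and a difference of 1.48, and 1.79% of all genes had a higher one. The HMGA2 difference stayed above 2-fold under all 8 alternative settings, from 1.15 to 1.64. HMGA1 stayed between 0.44 and 0.67 and did not reach 2-fold under any of them. HMGA2 overlaps the exons of a gene on the opposite strand, AC090673.1, and since the use of strand in counting is not given, reads from it could not be told apart.

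The ratio of HMGA1 to HMGA2 was 17.3 in control cells and 8.49 after knockdown. HMGA2 made up 5.47% of the summed HMGA level in control cells and 10.5% after knockdown. The sum was 336 FPKM in control cells and 503 FPKM after knockdown. HMGA1 and HMGB1 were at a ratio of 1.00 in control cells and 1.87 after knockdown.

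HMGA1 is made in a longer form, HMGA1a, and a shorter form, HMGA1b, that lacks a stretch between the first and the second AT-hook. The coding sequences of ENST00000311487 and ENST00000401473 differ by 33 bases, at coding positions 103 to 135 counted from the A of the start codon, given in capitals with 9 flanking bases on each side.
HMGA1a: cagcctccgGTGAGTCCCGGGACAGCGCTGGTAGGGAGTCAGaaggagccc
The HMGA1a coding sequence, in 2 transcripts, had 213 FPKM in control cells and 286 FPKM after knockdown. The HMGA1b coding sequence, in 3 transcripts, had 105 FPKM in control cells and 164 FPKM after knockdown. The ratio of a to b was 2.03 in control cells and 1.75 after knockdown, with HMGA1b at 33.0% and 36.4% of the gene. The leading transcript of each form had 198 and 269.7 FPKM (ENST00000311487) and 88.1 and 145 FPKM (ENST00000401473), and ENST00000347617, also HMGA1b, had 16.5 and 18.7 FPKM. All 5 HMGA1 transcripts were listed higher in the knockdown library, 1 of them, ENST00000374116, at only 0 and 0.20 FPKM.

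All 7 listed HMGA2 transcripts were likewise higher in the knockdown library, but all except the full-length one were below 1 FPKM in control cells. The full-length transcript, ENST00000403681, which codes for 109 residues and has a 3′UTR of 3003 bases, had 16.2 FPKM in control cells and 44.7 FPKM after knockdown. It held 88.2% and 84.4% of the gene. The other 6 transcripts have other 3′UTRs and coding lengths, and together they had 2.16 FPKM in control cells and 8.25 FPKM after knockdown, 11.8% and 15.6% of the gene. The largest of these were ENST00000393578, at 0.59 and 2.93 FPKM, and ENST00000393577, at 0.55 and 2.78 FPKM.

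The 3′UTR of full-length HMGA2 is known as a target of the let-7 microRNAs. The 8 mature let-7 microRNAs in RefSeq (GRCh38.p14) share 1 seed, in capitals (bases 2 to 8) in 2 of them.
hsa-let-7a-5p: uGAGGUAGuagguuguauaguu
hsa-let-7b-5p: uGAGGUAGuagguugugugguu
The sequence complementary to this seed, CTACCTC, was searched on the transcript strand in the 3′UTR of every listed transcript of the 9 genes. It occurs 4 times in ENST00000403681, in capitals below, and in none of the other 6 HMGA2 transcripts.
HMGA2 site 1 (chr12:65963298-65963320): gccaacgttcgatttCTACCTCa
HMGA2 site 2 (chr12:65964533-65964555): ccccactactcaataCTACCTCt
HMGA2 site 3 (chr12:65964945-65964967): ttgacttgcaaagacCTACCTCc
HMGA2 site 4 (chr12:65965798-65965820): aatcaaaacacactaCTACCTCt
Of 3348 listed genes with a 3′UTR of at least 3003 bases, 17.3% hold the match at least once in the first 3003 bases and 1, HMGA2 itself, holds 4 or more. The motif, the length and the number 4 were all chosen from HMGA2, so this count is a description and not a test. Among the other genes of the set, HMGA1 and LBR hold 1 match each.
HMGA1 site (chr6:34245829-34245851): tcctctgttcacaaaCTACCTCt
LBR site (chr1:225402437-225402459, minus strand): gtgaatttggctttgCTACCTCa
HMGA2 and HMGA1 were higher and LBR was lower in the knockdown library (LBR at 0.01 with mitochondrial genes left out). HMGA2 transcripts with and without the match were both higher, at 276% and 381% of the control (differences of 1.41 and 1.55). Each transcript without the match was below 1 FPKM in control cells, so the percentage of that group is uncertain. A match is a description of letters, and microRNA levels were not measured.

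**Figure D2:**
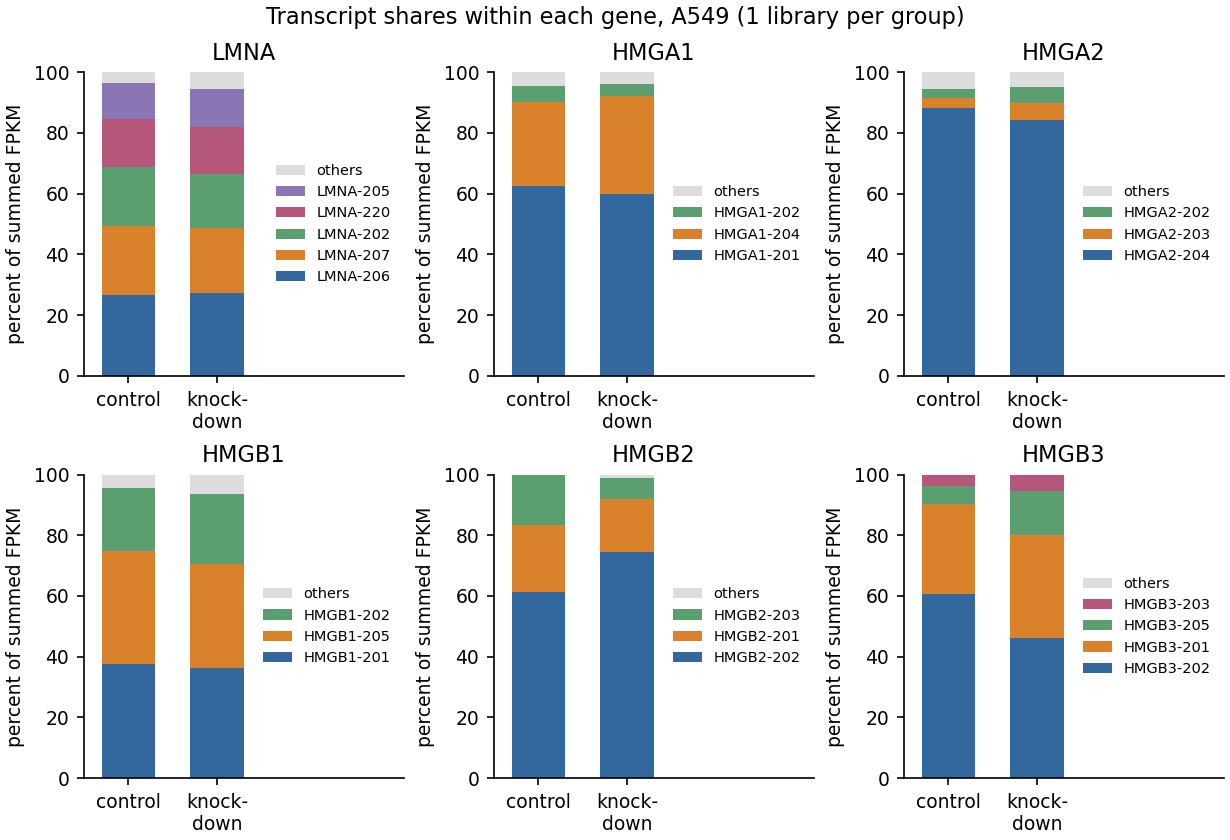
Share of each transcript in the summed FPKM of its gene (percent) in the A549 control and RBM4 knockdown library, for transcripts holding at least 5% in either (GENCODE transcript names, the leading transcript at the bottom), with all others in grey. Shares are close between the libraries for LMNA, HMGA1, HMGA2 and HMGB1 and shift most for HMGB2 and HMGB3.

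The HMGB genes were all lower in the knockdown library, none of them by 2-fold. HMGB1 (ENSG00000189403, chromosome 13, 30456704 to 30617597, minus strand), the most abundant of the family, had 317 FPKM in control cells and 241 FPKM after knockdown, a difference of -0.40. HMGB2 (ENSG00000164104, chromosome 4, 173331695 to 173335125, minus strand), whose transcript is most abundant in dividing cells, had 79.7 FPKM in control cells and 41.3 FPKM after knockdown, a difference of -0.93. HMGB3 (ENSG00000029993, X chromosome, 150980509 to 150990775, plus strand) had 119 FPKM in control cells and 69.0 FPKM after knockdown, a difference of -0.78. For HMGB2, 2.79% of all genes had a lower difference, for HMGB3 4.77% and for HMGB1 19.6%.

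The HMGB sum was 516 FPKM in control cells and 351 FPKM after knockdown. HMGB1 made up 61.5% of it in control cells and 68.6% after knockdown. HMGB2 made up 15.4% and 11.8%, and HMGB3 made up 23.1% and 19.7%. The ratio of HMGB1 to HMGB2 was 3.98 in control cells and 5.83 after knockdown. HMGB1 has 48 named pseudogenes in the annotation, HMGB3 has 29, HMGA1 has 7 and HMGB2 has 1, and how reads were shared with such copies is not given, so these levels are uncertain, that of HMGB1 most by this count.

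HMGB1 was listed with a long coding sequence of 648 bases (215 residues) in 4 transcripts and a short one of 477 bases (158 residues) in 2. They are identical over the first 471 bases, and the short one ends before the acidic tail, as the sequences above show. The long form had 194 FPKM in control cells and 145 FPKM after knockdown. The short form had 123 FPKM in control cells and 95.9 FPKM after knockdown. The long form held 61.1% of the gene in control cells and 60.1% after knockdown. Of the 6 transcripts, 5 were lower after knockdown, and 1 of the short form, ENST00000399489, was higher at 4.39 and 8.98 FPKM. ENST00000326004 carried most of the short form, at 119 and 86.9 FPKM. The transcripts of the long form also differ in the 3′UTR, from 450 bases in ENST00000399494 (118 and 82.8 FPKM) through 1507 bases in ENST00000339872 (66.4 and 55.8 FPKM) to 4653 bases in ENST00000341423 (4.62 and 4.23 FPKM), and the shorter ends carried most of the level.

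Transcript shares within a gene shifted more for HMGB2 and HMGB3 than for the other genes of the set. A shift of at least 10 percentage points in some transcript was seen in these 2 of the 8 genes with several transcripts, against 31.9% of 7791 such genes at 5 FPKM or more in both libraries, so a shift of that size is common in this table. ENST00000438704, the leading HMGB2 transcript, had 48.9 FPKM in control cells and 30.8 FPKM after knockdown and went from 61.3% to 74.6% of the gene. ENST00000446922, with the same coding length of 630 bases, had 13.1 and 2.91 FPKM, and ENST00000296503, again of that length, had 17.7 and 7.09 FPKM. The leading HMGB3 transcript, ENST00000419110, is a model with no stop codon. It had 72.0 FPKM in control cells and 31.9 FPKM after knockdown, 60.6% and 46.3% of the gene. The complete HMGB3 transcript, ENST00000325307, had 35.2 and 23.2 FPKM. Of the other models with no stop codon, ENST00000455596 had 7.34 and 10.1 FPKM and ENST00000430118 had 4.34 and 3.70 FPKM. Taken alone in place of the sum, the leading transcript gave HMGB3 a difference of -1.15, past 2-fold, and HMGB2 a difference of -0.65. For HMGB3 that transcript is a model of 707 bases with no stop codon, and FPKM of so short a model is less certain. The complete HMGB3 transcript gave a difference of -0.58. Models with no stop codon held 70.4% of HMGB3 in control cells and 66.3% after knockdown, so the level of HMGB3 is uncertain.

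**Figure D3:**
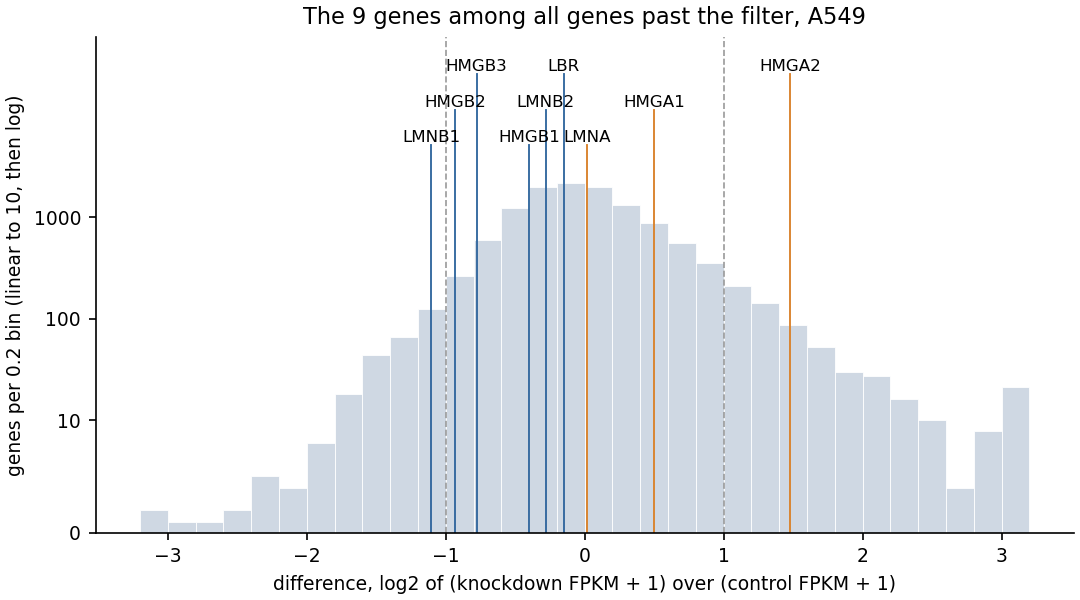
Number of genes per bin of 0.2 in the log2 difference (knockdown over control, pseudocount 1) for the 12230 genes past the filter, on an axis that is linear to 10 and logarithmic above it, with genes beyond the range of the axis added to the end bins. Dashed lines mark 2-fold, and vertical lines mark the 9 genes, of which LMNB1 and HMGA2 lie outside the dashed lines.

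The 3 lowest differences of the 9 were those of LMNB1, HMGB2 and HMGB3, a group picked by these values, while HMGB1, LMNB2 and LBR were lower by less. The proliferation marker MKI67, a gene named here with its earlier result known, was also lower. MKI67 had 76.6 FPKM in control cells and 36.5 FPKM after knockdown, a difference of -1.05. The part of cell division in the differences of the 3 genes was not tested, and in a bulk culture fewer dividing cells and less RNA per cell cannot be told apart. The promoter windows of LMNB1 and HMGB3 in RefSeq (GRCh38.p14, 300 bases around an annotated start) are shown as members of this lower group, each in the window with the most matches, with CCAAT or its reverse complement ATTGG, the box bound by NF-Y, in capitals.
LMNB1 promoter (chr5:126776886-126777185, plus strand): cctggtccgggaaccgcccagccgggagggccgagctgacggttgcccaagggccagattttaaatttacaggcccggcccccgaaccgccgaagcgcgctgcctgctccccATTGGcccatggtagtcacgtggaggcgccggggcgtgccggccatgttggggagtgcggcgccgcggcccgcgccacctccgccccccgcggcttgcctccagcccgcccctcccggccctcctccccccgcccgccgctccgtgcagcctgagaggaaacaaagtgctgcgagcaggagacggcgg
HMGB3 promoter (chrX:150983085-150983384, plus strand): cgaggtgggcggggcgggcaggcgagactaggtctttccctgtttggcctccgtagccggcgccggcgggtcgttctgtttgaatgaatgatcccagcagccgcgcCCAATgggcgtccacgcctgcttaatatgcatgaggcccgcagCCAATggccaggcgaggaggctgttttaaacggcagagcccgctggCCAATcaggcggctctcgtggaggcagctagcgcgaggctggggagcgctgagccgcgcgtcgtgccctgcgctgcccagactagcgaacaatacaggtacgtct
The LMNB1 window holds 1 match and the HMGB3 window 3. Of all 35116 promoter windows, 34.6% hold at least 1 match on either strand and 3.26% hold 3 or more. The printed windows were picked for their matches, while these shares are over windows not so picked. For 7 of the 9 genes the table has 14 windows, of which 7 hold a match. HMGA2 and HMGB2 have no window there. The match is not limited to the lower genes: both windows of HMGA1, which was higher, and 1 of 3 windows of LMNA hold 1 each. The other LMNB1 window, the other HMGB3 window and the windows of LMNB2 and LBR hold none. Of the 3 HMGB1 windows, 1 holds 3 matches and 1 holds 1.

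The counts of the gene lists that follow are to be read against all genes, of which 53.4% lay below 0 (44.0% once library totals were made equal, 39.7% with mitochondrial genes left out) and 7.21% were past 2-fold. Genes of the nuclear envelope that work with lamins lay on both sides of 0. Of 20 listed genes, 19 were measured, with a median difference of -0.09, none past 2-fold, and 7 above 0 against 12 below (10 above and 9 below once library totals were made equal). TMPO, which encodes the LAP2 proteins that bind lamins and chromatin, was lowest at 102 and 58.3 FPKM (-0.79). SYNE1, which encodes nesprin-1, a link from the nucleus to the cytoskeleton, had 19.998 FPKM in control cells and 12.9 FPKM after knockdown (-0.59). ANKLE2, which acts in reassembly of the envelope after mitosis, was highest at 35.6 and 54.7 FPKM (0.60), and TOR1AIP2, an activator of torsin ATPases, had 45.5 and 56.5 FPKM (0.30).

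Genes of the enzymes that process the lamin ends printed above, listed with PGGT1B of a related enzyme, were also within 2-fold. All 6 were measured, with a median of -0.17, 1 above 0 and 5 below (3 and 3 once library totals were made equal). RCE1, the protease that removes the last residues after farnesylation, had 14.1 FPKM in control cells and 6.75 FPKM after knockdown (-0.97). It shares exons with C11orf80, and 1 enzyme gene passed 2-fold with a pseudocount of 0.1. PGGT1B, a subunit of the related geranylgeranyl transferase, had 9.76 and 6.87 FPKM (-0.45). The farnesyltransferase subunit genes FNTA, at 27.3 and 30.5 FPKM (0.16), and FNTB, at 10.5 and 9.90 FPKM (-0.08), were the highest, and both share exons with another gene.

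Of 21 listed other genes of the HMG box and HMGN families, 18 were measured, with a median of -0.28. Of these, 1 was lower by 2-fold, where 2.25% of all genes were, and 5 lay above 0 and 13 below, where 53.4% of all genes lay below (7 and 11 once library totals were made equal, when 1 gene of the list also passed 2-fold upward). HMGN2, a nucleosome-binding protein, had 168 FPKM in control cells and 73.1 FPKM after knockdown (-1.19). UBTF, an HMG box factor of ribosomal RNA transcription, had 47.1 and 24.8 FPKM (-0.90). TOX2 was highest at 7.95 and 16.3 FPKM (0.95), followed by the repressor gene CIC at 45.6 and 61.4 FPKM (0.42).

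Heterochromatin genes, among them those of senescence-associated heterochromatin foci, were below 0 in 20 of 21 cases, all within 2-fold, beside 53.4% of all genes below 0. The median was -0.24. The count below 0 was 13 once library totals were made equal, beside 44.0% of all genes, and also 13 with mitochondrial genes left out, beside 39.7%. UHRF1, which recruits the maintenance DNA methyltransferase, had 37.4 FPKM in control cells and 18.8 FPKM after knockdown (-0.95). EZH2, the methyltransferase of the Polycomb repressive complex, had 16.2 and 8.21 FPKM (-0.90). The macroH2A genes, whose histones are part of such foci, were the highest of the list, H2AFY at 77.7 and 82.1 FPKM (0.08) and H2AFY2 at 19.3 and 18.9 FPKM (-0.02).

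Genes around let-7 and HMGA2 were mixed. Of 15 listed, 12 were measured, with a median of -0.23, 4 above 0 and 8 below (5 and 7 once library totals were made equal). Of the 12, 1 was past 2-fold in each direction, or 2 in each by the highest transcript per gene. None was lower by 2-fold with a pseudocount of 10 or with a minimum of 5 FPKM. Of all genes, 53.4% lay below 0, 4.96% were higher by 2-fold and 2.25% lower. IGF2, a growth factor gene whose messenger RNA is bound by IGF2BP proteins, had 12.6 FPKM in control cells and 44.9 FPKM after knockdown (1.75) and shares exons with INS-IGF2. DICER1, which makes mature microRNAs, had 16.3 and 24.3 FPKM (0.55). E2F2 had 4.98 and 1.62 FPKM (-1.19), and CCNA2, a cyclin of S and G2 phase, had 31.6 and 16.6 FPKM (-0.89). Of the let-7 processing inhibitors, LIN28A was listed at 0 in both libraries and LIN28B had 2.54 and 2.05 FPKM (-0.21).

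**Figure D4:**
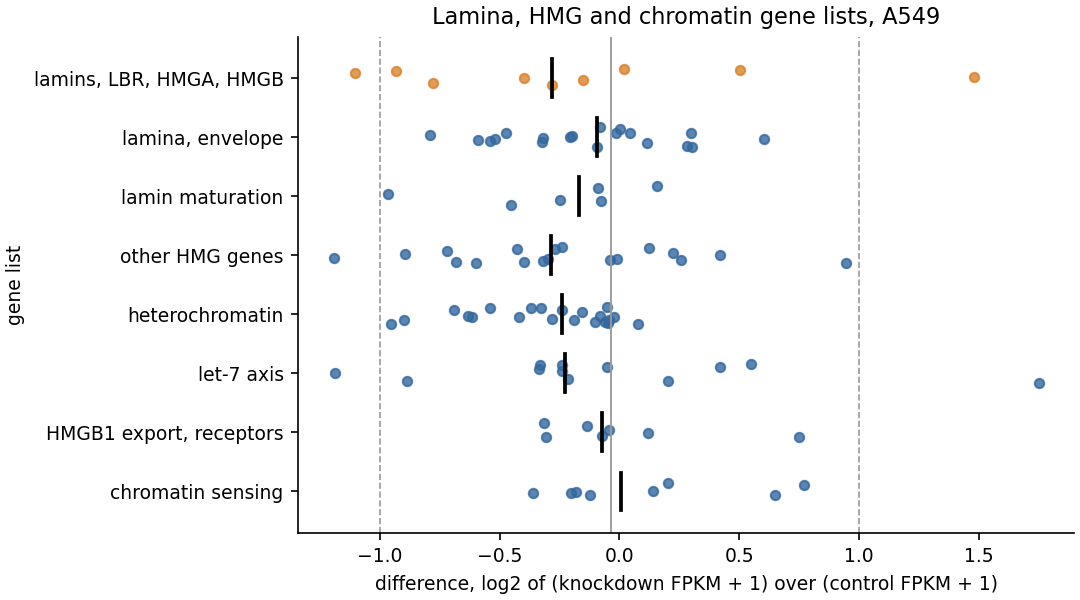
Log2 differences (knockdown over control, pseudocount 1) of the measured genes of the 9-gene set and of 7 gene lists, 1 point per gene with vertical jitter, black bars at list medians, a grey line at the median of all genes (-0.04) and dashed lines at 2-fold. Most points lie between the dashed lines, with HMGA2 and IGF2 to the right of them and LMNB1, HMGN2 and E2F2 to the left.

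Genes nearest to LMNB1, HMGA2 and HMGB2 were found by the distance in mean log2 level and log2 difference over the 2 libraries, a measure that 2 points make coarse. Nearest to LMNB1 was WDR34, at 53.1 and 24.2 FPKM, followed by ODC1 and GUK1. Nearest to HMGA2 was MICAL2, an actin-oxidizing enzyme gene, at 18.9 and 52.8 FPKM, followed by LTBP4 and GSN. Nearest to HMGB2 was the epithelial transcription factor gene ELF3, at 79.2 and 42.3 FPKM, followed by LGR4 and MAZ.

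The differences of the 9 genes were also computed under 8 other settings, of which those that change only the filter could not move them. HMGA2 stayed above 2-fold and HMGA1 above 0 in each, HMGB1, HMGB2, HMGB3, LMNB1 and LMNB2 stayed below 0 in each, and LMNA stayed between 0.02 and 0.18.

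**Figure D5:**
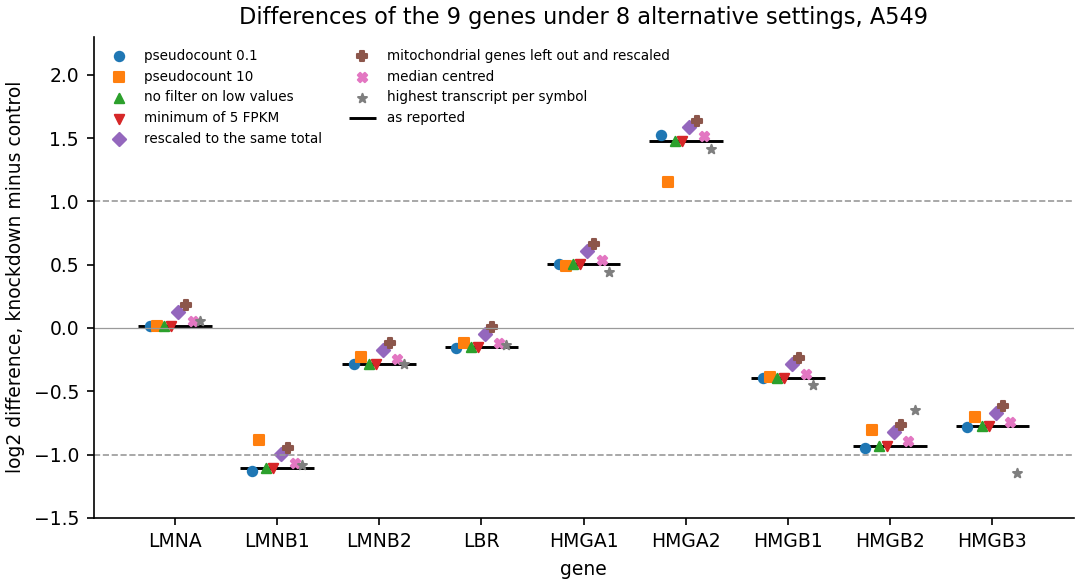
Log2 difference (knockdown minus control) of the 9 genes as reported (black bars) and under 8 alternative settings (symbols), with dashed lines at 2-fold. Symbols of LMNB1 lie on both sides of the lower dashed line, between -1.13 and -0.89, and those of HMGA2 lie above the upper one, between 1.15 and 1.64.

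Both libraries held epithelial transcripts, with 5389 and 4256 FPKM summed over the 5 epithelial markers. Among them KRT18 was lower, at 1853 and 912 FPKM (-1.02), as was KRT8, at 1646 and 888 FPKM (-0.89), while KRT7 had 1879.8 and 2446 FPKM (0.38) and EPCAM had 2.74 and 2.75 FPKM (0.01). Some markers of other cell types were higher after knockdown. The 10 fibroblast markers had 22.7 and 46.1 FPKM in all, with THY1 at 5.73 and 26.0 FPKM, COL1A1 at 2.61 and 9.47 FPKM (1.54) and TWIST2 at 14.0 and 9.60 FPKM (-0.50), and the other 7 stayed under 1 FPKM in both libraries, DCN at 0. The 10 markers of blood and immune cells had 9.06 and 30.5 FPKM. Of these, CD68, which shares exons with AC016876.2, had 6.90 and 25.8 FPKM (1.76) while CD14 had 2.16 and 4.32 FPKM (0.75). The other 8 stayed under 1 FPKM, PTPRC at 0 and 0.047 FPKM. The 7 endothelial markers had 3.04 and 18.9 FPKM, with ESAM at 3.04 and 18.5 FPKM (2.27), and the other 6 stayed under 1 FPKM, VWF at 0. The part of other cells in the differences above was not tested.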

How the data were processed

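Messenger RNA of A549 and H1299 cultures was sequenced. Per the labels' protocols, Trizol was used for RNA and libraries came from an Illumina TruSeq RNA kit. The submitters' processing notes name build hg38 and the tools Cufflinks, TopHat and CASAVA (version 1.8.2). Not given in the sources used here are their roles, the annotation and the use of strand. The authors deposited FPKM per protein-coding transcript, without counts. A total of 3 columns that match no label were not used.

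From the deposited FPKM, 79989 transcripts were summed to 19732 symbols with Python 3.11.15 and pandas 2.3.3. Genes at 1 FPKM or more in either library were kept, and log2 differences used a pseudocount of 1. Counting of 2-fold genes was tested on simulated data. Alternatives were other pseudocounts, filters and scalings, and the highest transcript per symbol. GENCODE 29, on the same build, held all 45 transcripts of the 9 genes. The 9 genes, lists and settings were chosen with earlier results of these data known. The text names these genes, RBM4, the 2 highest and 2 lowest measured genes of each list, the 3 genes nearest to LMNB1, HMGA2 and HMGB2, and transcripts with at least 5% of a gene. MKI67, LIN28A, LIN28B, AGER, TLR2, TLR4, DCN, PTPRC, VWF and the transcripts below 5% were added after their values were seen.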

Additional observations from a re-analysis of the deposited data

How the results depend on the processing

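With 1 library per group and unknown depth, no interval bounds any difference, and low levels are the least certain. No paired analysis was possible because each group had 1 library. Of 72 values (9 genes under 8 alternative settings), 68 stayed on the same side of 2-fold, 3 of LMNB1 dropped below it and 1 of HMGB3 passed it. Removing the filter or raising it to 5 FPKM could not change any of these values, because all 9 genes exceed that level. LMNB2, listed as 1 transcript, could not change with the highest transcript per symbol. LBR alone changed sign, at 0.01 with mitochondrial genes left out. The count of the 9 genes lower by 2-fold was 1 as reported. It was 0 with a pseudocount of 10, after rescaling to the same total and with mitochondrial genes left out, and 2 with the highest transcript per symbol, which added HMGB3. Over all genes, 607 higher and 275 lower became 985 and 418 with a pseudocount of 0.1 and 132 and 96 with a pseudocount of 10, and 810 and 176 when mitochondrial genes were left out. In that last setting the medians of the envelope list (0.07) and of the HMGB1 export and receptor list (0.08) moved above 0, as they did with equal library totals (0.02 and 0.03).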

Other observations

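HMGB1 acts outside the cell through receptors of innate immunity, and 9 of the 16 listed genes of that route stayed under 1 FPKM in both A549 libraries. The other 7 were measured, none past 2-fold, with a median of -0.07. The export receptor gene XPO1 had 136 FPKM in control cells and 109.8 FPKM after knockdown (-0.31), and the acetyltransferase gene KAT2B had 4.80 and 3.67 FPKM (-0.32). The adaptor gene MYD88 had 11.6 and 12.7 FPKM (0.12), and the co-receptor gene CD14 had 2.16 and 4.32 FPKM (0.75). AGER, the receptor known as RAGE, had 1.10 and 0.91 FPKM, and TLR4 and TLR2 were at or below 0.11 FPKM in both libraries.

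Sensors of chromatin in the cytosol, a route described in cells with a weakened lamina, lay on both sides of 0. Of 10 listed genes, 8 were found and measured, with a median of 0.01 and none past 2-fold (2 higher with a pseudocount of 0.1). MB21D1, which encodes cGAS, had 6.71 FPKM in control cells and 5.01 FPKM after knockdown (-0.36). TMEM173, which encodes STING, had 0.39 and 1.18 FPKM (0.65). IFI16 had 1.48 and 3.23 FPKM (0.77), and the nuclease gene TREX1, which shares exons with ATRIP, had 6.39 and 5.42 FPKM (-0.20).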
